A study of Chlorocebus aethiops with 8 samples.

Results

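MDM2, CDKN1A, GADD45A, RRM2B, SESN1, SESN2, TP53I3, TP53INP1, BAX and FAS are 10 textbook targets of the transcription factor p53, and their RNA was followed in COS cells given siRNA against RNA helicase A or control siRNA. Members were all probe sets that carried exactly 1 of these symbols in the annotation of the array. There were 22 such probe sets of 52865 in all, and they covered 9 of the 10 genes, of 14135 genes named on the array. No probe set was listed under SESN2 in the annotation used here, and SESN2 was not analysed here. Of the 22 probe sets, 14 were bright enough to be tested, for 7 genes. All 4 probe sets of FAS and the probe set of TP53INP1 were too dim.

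RNA was taken from COS cells, an African green monkey kidney line that carries the large T antigen of simian virus 40, and was read on rhesus macaque arrays. Both siRNA treatments were transfections at 0.5 nM, given again after the cells had been split, with 4 h in serum-free medium followed by 24 h in medium with 10% serum. Control cells received scrambled siRNA, and knockdown cells received siRNAs whose target is RNA helicase A (RHA), the product of DHX9. Total cytoplasmic RNA and RNA from the polysome fractions of a sucrose gradient were each measured under both siRNAs, which gave 4 groups of 2 arrays: cytoplasmic control, cytoplasmic RHA siRNA, polysomal control and polysomal RHA siRNA. The siRNAs were designed on the human sequence. All groups are of a single cell line, and no untransfected cells were analysed here.

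In most cells p53 is kept scarce by MDM2, a ubiquitin ligase whose gene p53 itself activates, so that MDM2 closes a feedback loop. When DNA is damaged or cells are stressed, p53 is released and raises the transcription of genes for cell cycle arrest (CDKN1A, GADD45A), nucleotide supply for DNA repair (RRM2B), redox balance and growth control (SESN1, SESN2, TP53I3) and cell death (BAX, FAS). Large T antigen binds p53 and hinders its activity, so these genes are read here in cells where the pathway is known to be impaired. Several of them, GADD45A and SESN2 among them, are also induced without p53 through the stress factor ATF4.

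Values are probe set intensities on a linear scale, and differences are given on the log2 scale, where 1 is a doubling. The arrays numbered 1 and 2 in each group are called set 1 and set 2. The sets differed (adjusted p under 0.05 in limma) for 51.3% of the 26383 tested probe sets, so the main effects are also given within each set. By its brightest probe set, DHX9 intensity over both fractions was 49.5% of control with the knockdown (adjusted p of 1.00 in limma). It was lower in each of 4 pairs of arrays. The further DHX9 probe sets, too dim to be tested, had log2 fold changes of -0.67, -0.31 and -0.0025. The 49.5% thus holds for the brightest probe set alone. One array differed from the rest: the median r of the set 1 cytoplasmic control to its set was 0.949, while no other array was under 0.967. As a sign of RNA integrity, the level of control transcripts at the 3' end over the 5' end went from 4.09 to 2.98 (log2) with RHA siRNA in cytoplasmic RNA of set 1 and from 2.54 to 3.73 in polysomal RNA of set 1. In set 2 it went from 3.83 to 3.56 and from 4.15 to 3.82, and the part of RNA integrity in the results was not tested. Fewer cells expressing a gene and less RNA per cell cannot be told apart in such samples. Of the marker genes checked, 5 of 6 mesenchymal and 6 of 8 kidney epithelial genes were bright enough to be tested. Among all genes 10106 of 14135 were. The brightest of each kind were vimentin (VIM) at a mean log2 of 12.3 and EPCAM at 8.40. E-cadherin (CDH1), PAX2, the leukocyte gene PTPRC and the hepatocyte gene APOA1 lay below the limit of testing, while the leukocyte genes LYZ (5.82) and CD14 (4.46) lay above it.

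**Figure D1:**
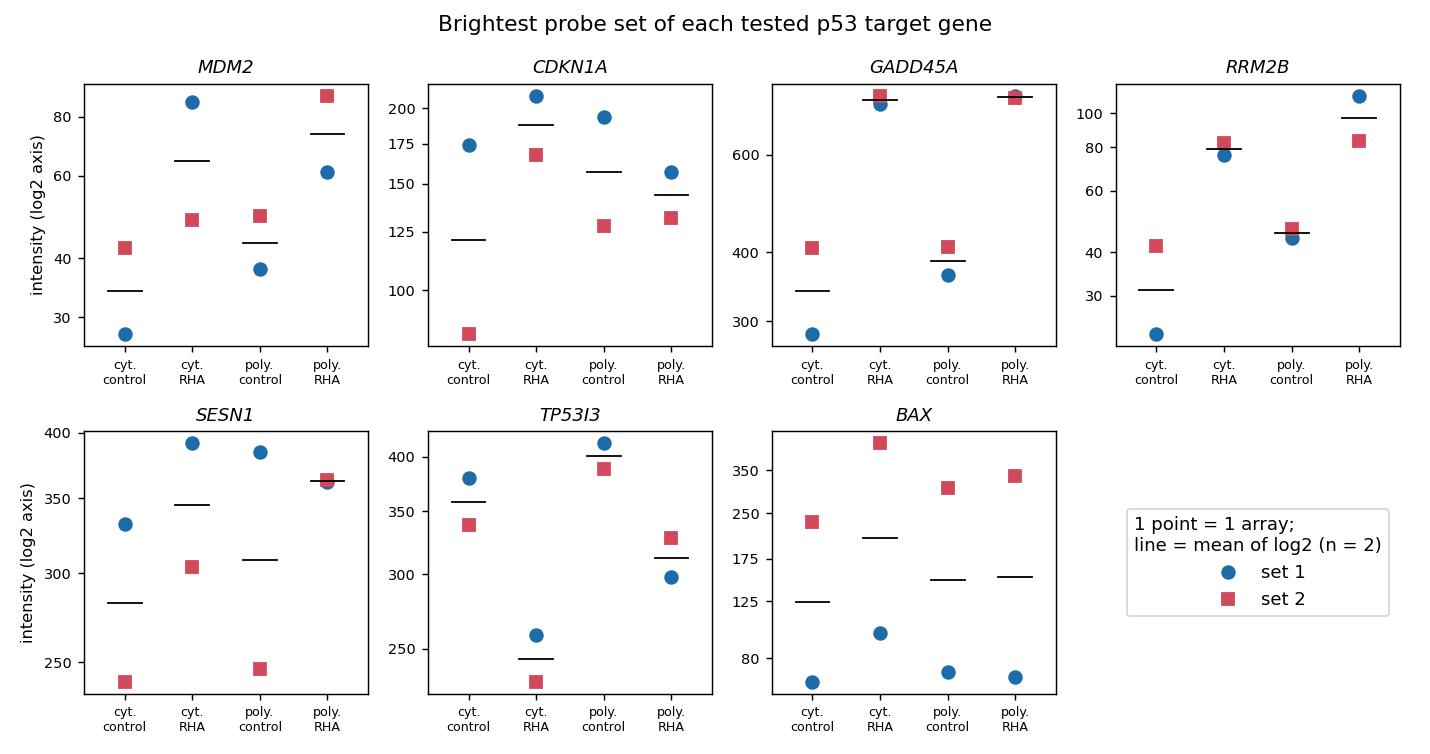
Intensity (log2 axis) of the brightest probe set of each of the 7 tested genes on each of the 8 arrays, with set 1 as circles, set 2 as squares and the mean of log2 values as a line (n = 2). GADD45A and RRM2B lie above every control array on all 4 RHA siRNA arrays, TP53I3 lies below every control array, and BAX is split by set and not by siRNA.

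The first comparison asked how the targets differed under RHA siRNA with the fractions averaged. Judged by the brightest probe set, 6 of 7 genes had a log2 fold change above 0, with TP53I3 below, where 53.8% of all genes lay above 0. The median of the 7 was 0.38 (0.24 in set 1 and 0.52 in set 2), beside 0.03 for all 10106 genes tested. In both sets, 5 of 7 genes lay above 0, where 28.1% of all genes did. With the set as a term, the median was 0.47 without the set 1 cytoplasmic control array and 0.29 without the set 2 one. None of the 7 passed the threshold, an adjusted p under 0.05 in limma over all tested probe sets. That test called 0 of 26383 probe sets (0%), with 540 at an unadjusted p under 0.05, and with the set as a term in the model it called 2 (0.00758%), none of them a member. With 2 arrays in each group and a strong set difference these values describe the arrays at hand.

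MDM2, the negative regulator of p53, was the one member whose 4 probe sets all pointed up. Its brightest probe set, MmugDNA.37787.1.S1_at, had cytoplasmic intensities of 27.6 (set 1) and 42.2 (set 2) in the controls and of 86.2 and 48.3 after the knockdown, in this order here and throughout. Its polysomal intensities were 38.0 and 49.1 in the controls and 60.9 and 88.8 after the knockdown. Both RHA siRNA arrays were above both control arrays within each fraction, but the polysomal control array of set 2 was brighter than the cytoplasmic RHA siRNA array of that set, so the groups overlapped when fractions were pooled. The MDM2 log2 fold change was 0.84 (SE 0.31, 1.79-fold of control), with 1.16 in set 1 and 0.53 in set 2. Its adjusted p in limma was 1.00, or 0.264 with the set as a term.

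The other MDM2 probe sets had smaller or less certain differences. MmugDNA.32207.1.S1_at had a log2 fold change of 0.84 (0.47 and 1.22 in the sets) and no overlap between RHA siRNA and control arrays. Its controls lay below the limit of testing (mean log2 of 3.70 in cytoplasm and 4.31 in polysomes, against 4.32), so that fold is uncertain. MmuSTS.1503.1.S1_at had 0.24 (0.15 and 0.32), and the dim MmugDNA.15767.1.S1_at had 0.57 (0.43 and 0.70). All 4 MDM2 probe sets were higher with RHA siRNA in each of the 4 pairs of arrays, by amounts from 0.05 to 1.64.

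Cell cycle arrest genes were read by 4 probe sets. CDKN1A, which encodes the cyclin-dependent kinase inhibitor p21, had 1 probe set, MmuSTS.3400.1.S1_at. It read 174 and 84.7 in cytoplasmic controls and 210 and 168 under RHA siRNA. Polysomal values were 194 and 128 in the controls and 157 and 132 under RHA siRNA. The groups overlapped in both fractions, and set 1 was brighter than set 2 throughout. The log2 fold change of CDKN1A over both fractions was 0.25 (SE 0.32), with -0.02 in set 1 and 0.52 in set 2, and its adjusted p in limma was 1.00. With the set as a term the log2 fold change was 0.41 and 0.088 when the cytoplasmic control array of set 1 or of set 2 was left out.

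GADD45A encodes a small protein that acts in growth arrest and DNA repair and was read by 3 probe sets. The brightest, MmuSTS.4816.1.S1_at, had cytoplasmic intensities of 284 and 407 in the controls and of 740 and 767 after the knockdown. Polysomal intensities were 364 and 409 in the controls and 764 and 759 after the knockdown. All 4 RHA siRNA arrays lay within 740 to 767, above all 4 control arrays, and this separation was seen in both sets. GADD45A had a log2 fold change of 1.06 (SE 0.23, 2.09-fold of control), with 1.22 and 0.90 in sets 1 and 2. Only 0.470% of tested probe sets had a larger one. Its adjusted p was 1.00 in limma and 0.129 with the set as a term. With that term and without the set 2 cytoplasmic control array, a setting added after seeing the data, the log2 fold change was 1.18. Without the set 1 one it also lay above 0.

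The further GADD45A probe sets did not show this. MmugDNA.34522.1.S1_at read 274 and 266 in cytoplasmic controls, 264 and 163 under RHA siRNA, 386 and 186 in polysomal controls and 274 and 250 under RHA siRNA. Its log2 fold change was -0.21 (-0.28 and -0.14 in the sets). The dimmest had 0.19, but with 0.61 in set 1 and -0.22 in set 2, and it was 3.64-fold brighter in set 2 than in set 1. The value for GADD45A thus rests on 1 of 3 probe sets, and which transcripts the others read was not tested.

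RRM2B encodes the p53-inducible small subunit of ribonucleotide reductase, which makes deoxynucleotides for DNA repair outside S phase. Its brightest probe set had cytoplasmic intensities of 23.3 and 41.6 in the controls and of 76.2 and 82.1 after the knockdown. Polysomal intensities were 44.0 and 46.7 in the controls and 113 and 83.4 after the knockdown. As for GADD45A, every RHA siRNA array was above every control array. The RRM2B log2 fold change was 1.22 (SE 0.27, 2.33-fold of control), with 1.53 and 0.91 in the sets, and 0.212% of tested probe sets had a larger one. The adjusted p in limma was 1.00, or 0.143 with the set as a term. With that term and without the set 2 cytoplasmic control array, the RRM2B log2 fold change was 1.45. Without the set 1 one it also lay above 0.

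The 3 remaining RRM2B probe sets pointed the other way. MmuSTS.2129.1.S1_at read 44.9 and 35.1 in cytoplasmic controls, 19.8 and 16.9 under RHA siRNA, 29.8 and 30.6 in polysomal controls and 34.9 and 23.4 under RHA siRNA. It was thus lower in cytoplasm, where the groups did not overlap, and overlapped in polysomes. The log2 fold change was -0.60 (SE 0.24, -0.47 and -0.72 in the sets), which 97.3% of tested probe sets exceeded. Dim probe sets MmugDNA.7832.1.S1_at and MmugDNA.28315.1.S1_at had -0.33 and -0.18. No direction can be given for the RRM2B gene as a whole from these 4 probe sets.

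**Figure D2:**
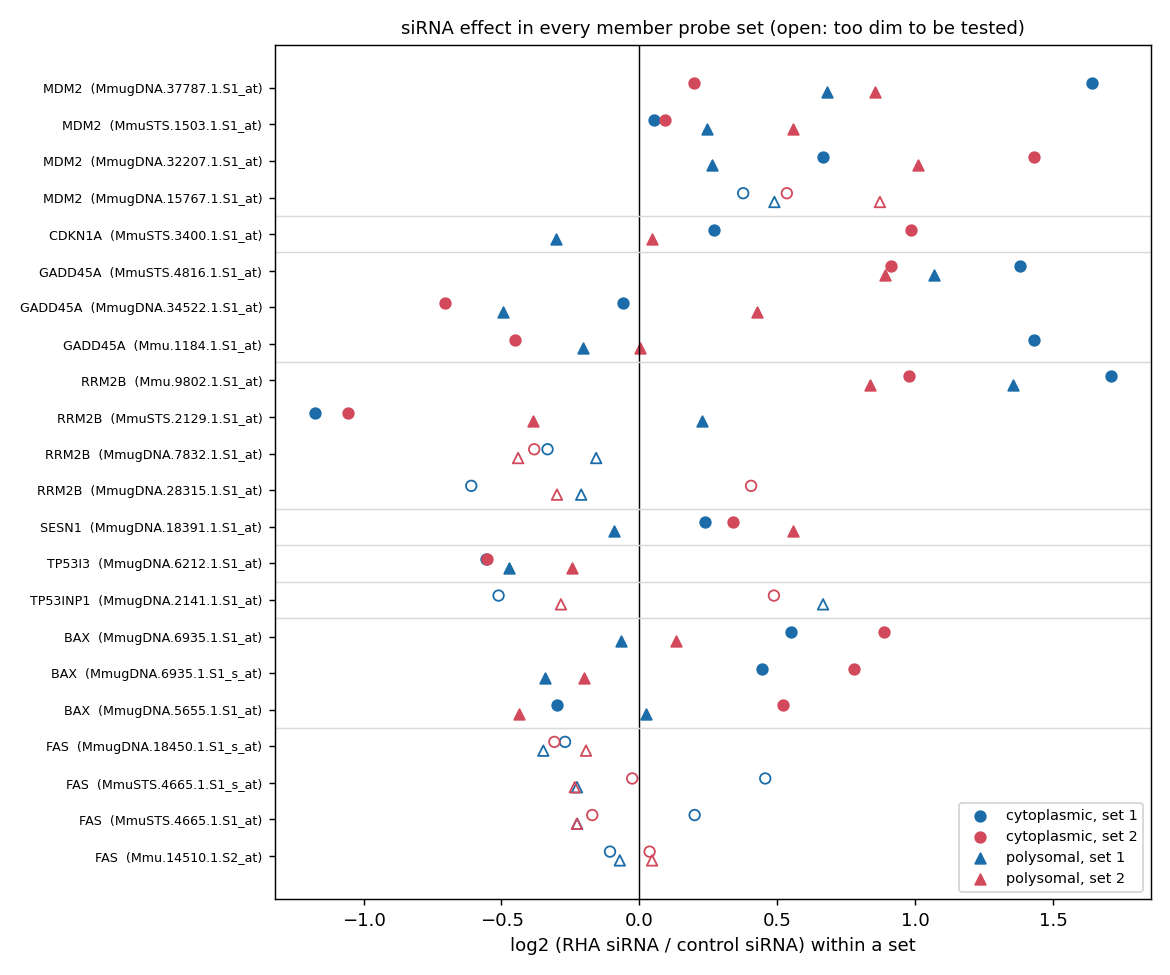
The log2 ratio of RHA siRNA over control siRNA within a set for each of the 22 member probe sets, in cytoplasmic (circles) and polysomal RNA (triangles), with open symbols for probe sets too dim to be tested, set 1 in blue and set 2 in red. All MDM2 points lie above 0, while the probe sets of GADD45A and of RRM2B lie on both sides of it.

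Stress and redox targets gave small differences, and TP53I3 pointed down. SESN1, a sestrin that restrains growth signalling through mTORC1, was read by MmugDNA.18391.1.S1_at at 332 and 240 in cytoplasmic controls and 392 and 304 under RHA siRNA. Polysomal SESN1 read 385 and 247 in the controls and 361 and 363 under RHA siRNA. The groups overlapped, and the SESN1 log2 fold change was 0.26 (SE 0.26, 0.07 and 0.45 in the sets). TP53I3, a quinone oxidoreductase tied to p53-dependent oxidative stress, was read by MmugDNA.6212.1.S1_at at 380 and 338 in cytoplasmic controls and 258 and 230 under RHA siRNA. Its polysomal intensities were 414 and 388 in the controls and 298 and 328 after the knockdown. Every RHA siRNA array of TP53I3 was below every control array, and the sets gave nearly equal values. Its log2 fold change was -0.46 (SE 0.21, 0.728-fold of control), with -0.52 and -0.40 in the sets. The adjusted p in limma was 1.00, and 0.321 with the set as a term. TP53INP1, a stress-induced nuclear protein, lay between 6.78 and 15.7 on all arrays, which is under the limit of an intensity of 19.9.

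Of the death genes, BAX was dominated by the difference between the sets. BAX, the pore-forming protein of the mitochondrial death pathway, read 66.4 and 234 in cytoplasmic controls and 97.2 and 433 under RHA siRNA (MmugDNA.6935.1.S1_at). Polysomal BAX read 71.9 and 306 in the controls and 68.7 and 335 under RHA siRNA. All set 2 arrays were above all set 1 arrays, with a mean ratio of 4.25 between the sets, and the s_at probe set for the same target differed 8.20-fold. The BAX log2 fold change was 0.38 (SE 0.85), with 0.24 and 0.51 within the sets. With the set as a term its SE was 0.17 and its adjusted p in limma 0.426. The third BAX probe set, MmugDNA.5655.1.S1_at, had -0.05. FAS, the death receptor of the cell surface, had its brightest probe set just under the limit (mean log2 of 4.24), with arrays between 14.6 and 23.8 and a log2 fold change of -0.28 (-0.31 and -0.25). The other 3 FAS probe sets stayed between 4.26 and 8.22 on all arrays, so FAS could not be followed.

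Over all 14 tested member probe sets, 3 were higher in every RHA siRNA array than in any control array, where 1.43% of all tested probe sets were, and they belonged to MDM2, GADD45A and RRM2B. The MDM2 one, MmugDNA.32207.1.S1_at, had control means below the limit and was tested only because its RHA siRNA arrays were brighter. Its place in these counts is thus tied to the filter, and the brightest MDM2 probe set overlapped. TP53I3 was the 1 member lower without overlap, where 1.38% were. In each of the 4 pairs of arrays 5 of 14 were higher (9.81% of all), that MDM2 probe set among them, and 1 was lower (8.99%). At least 2-fold higher were 2, where 0.625% of all were. These counts treat probe sets of a gene as separate, although they read the same gene on the same arrays.

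**Figure D3:**
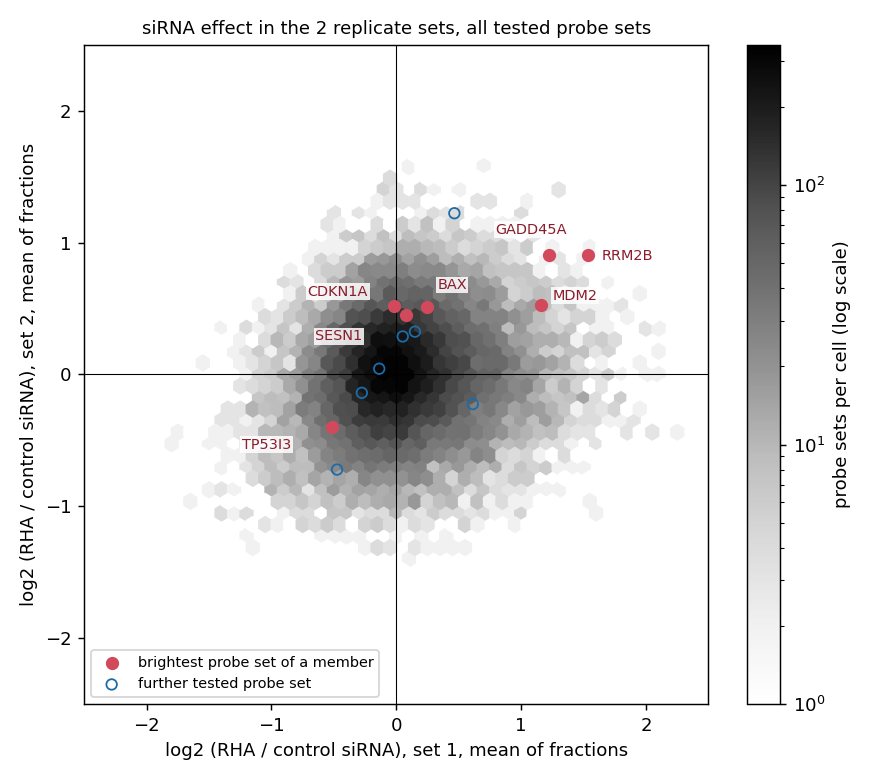
The log2 siRNA effect (mean of both fractions) in set 1 against set 2 for all 26383 tested probe sets (grey cells, darker for more probe sets on a log scale), with brightest member probe sets filled and further ones open. RRM2B, GADD45A and MDM2 lie at the upper right, at 0.53 or more in each set, and TP53I3 lies at the lower left.

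The same comparison was then read in each fraction, and no difference between the fractions passed the threshold for a member. In cytoplasmic RNA the log2 fold changes were 1.15 for GADD45A (SE 0.32), 1.34 for RRM2B (SE 0.39), 0.92 for MDM2 (SE 0.44), 0.72 for BAX (SE 1.20), 0.63 for CDKN1A (SE 0.45), 0.29 for SESN1 (SE 0.37) and -0.56 for TP53I3 (SE 0.29). The median was 0.72 (0.55 and 0.89 in the sets), beside 0.06 for all genes. Above 0 in both sets were 6 of 7 genes, where 29.3% of all genes were. The brightest MDM2 probe set had 1.64 in set 1 and 0.20 in set 2, while MmugDNA.32207.1.S1_at had 0.67 and 1.43 and MmuSTS.1503.1.S1_at 0.05 and 0.09. Against the brightest RRM2B probe set, MmuSTS.2129.1.S1_at had -1.12 in cytoplasm (-1.18 and -1.06 in the sets), with no overlap between the siRNAs. For GADD45A, MmugDNA.34522.1.S1_at had -0.38 in cytoplasm (-0.06 and -0.70 in the sets) and the dimmest probe set 0.49 (1.43 and -0.45). In polysomal RNA the log2 fold changes of the brightest probe sets were 0.98 for GADD45A (SE 0.32), 1.09 for RRM2B (SE 0.39) and 0.77 for MDM2 (SE 0.44). They were 0.23 for SESN1 (SE 0.37), 0.03 for BAX (SE 1.20), -0.13 for CDKN1A (SE 0.45) and -0.36 for TP53I3 (SE 0.29). The SEs of both fractions hold the difference between the sets. With the set as a term those of BAX and CDKN1A were 0.24 and 0.27 in each fraction. The polysomal median was 0.23 (-0.07 and 0.56 in the sets), while 5022 of all 10106 genes lay above 0, and 3 of 7 genes were above 0 in both sets against 27.3% of all. In neither fraction did limma call a probe set, with or without the set as a term, while 426 and 137 had an unadjusted p under 0.05 in cytoplasm and polysomes. With the set as a term and without the set 2 cytoplasmic control array, the brightest probe sets of GADD45A and RRM2B had 1.37 and 1.80 in cytoplasm. Without the set 1 one, 6 of 7 genes lay above 0 in cytoplasm. Both of these fits were added after seeing the data.

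The 4 group means of the brightest probe sets were ordered by siRNA first for some members and not for others. GADD45A had mean log2 intensities of 8.41 ± 0.37 in cytoplasmic control, 8.59 ± 0.12 in polysomal control, 9.56 ± 0.04 in cytoplasmic RHA siRNA and 9.57 ± 0.01 in polysomal RHA siRNA RNA (SD, n = 2). Neighbours under the same siRNA did not differ beyond their spread, while the step from control to RHA siRNA was larger than either spread. RRM2B gave the same order, with 4.96 ± 0.59, 5.50 ± 0.06, 6.31 ± 0.08 and 6.60 ± 0.31. Other probe sets of these genes did not: in that sequence of groups MmuSTS.2129.1.S1_at of RRM2B had 5.31 ± 0.25, 4.92 ± 0.03, 4.19 ± 0.16 and 4.84 ± 0.41. MmugDNA.34522.1.S1_at of GADD45A had 8.08 ± 0.03, 8.07 ± 0.74, 7.70 ± 0.49 and 8.03 ± 0.09. The brightest MDM2 probe set gave the order of the brightest GADD45A one, with 5.09 ± 0.43, 5.43 ± 0.26, 6.01 ± 0.59 and 6.20 ± 0.38, but all of its neighbours lay within their spread of each other. TP53I3 was ordered the other way, from cytoplasmic RHA siRNA at 7.93 ± 0.12 over polysomal RHA siRNA at 8.29 ± 0.10 and cytoplasmic control at 8.49 ± 0.12 to polysomal control at 8.65 ± 0.06, each step being larger than the SDs beside it. CDKN1A was lowest in cytoplasmic control RNA (6.92 ± 0.73), followed by polysomal RHA siRNA (7.17 ± 0.18), polysomal control (7.30 ± 0.42) and cytoplasmic RHA siRNA RNA (7.55 ± 0.23). SESN1 went from 8.14 ± 0.33 in cytoplasmic control over 8.27 ± 0.45 in polysomal control and 8.43 ± 0.26 in cytoplasmic RHA siRNA to 8.50 ± 0.01 in polysomal RHA siRNA RNA. BAX had 6.96 ± 1.28, 7.21 ± 1.48, 7.25 ± 1.62 and 7.68 ± 1.52 in cytoplasmic control, polysomal control, polysomal RHA siRNA and cytoplasmic RHA siRNA RNA. These SDs hold the difference between the sets. Within the sets, BAX was higher in polysomal than cytoplasmic control RNA by 0.12 and 0.39, and under RHA siRNA the polysomal minus the cytoplasmic value was -0.50 and -0.37.

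The title of the series asks about polysome loading, read here as the polysomal over the cytoplasmic value. Under control siRNA all 7 genes had a log2 ratio above 0 in both sets, where 35.4% of all genes did, with a median of 0.25 beside 0.08, though under quantile normalisation SESN1 had -0.04 and the median was 0.10. Ratios ranged from 0.13 for SESN1, 0.16 for TP53I3, 0.18 for GADD45A and 0.25 for BAX to 0.34 for MDM2, 0.37 for CDKN1A and 0.54 for RRM2B. Under RHA siRNA 2 of 7, RRM2B and TP53I3, were above 0 in both sets, where 32.3% of all genes were. The ratios were 0.36 for TP53I3, 0.29 for RRM2B, 0.19 for MDM2, 0.07 for SESN1, 0.02 for GADD45A, -0.38 for CDKN1A (-0.42 and -0.35 in the sets) and -0.43 for BAX (-0.50 and -0.37), though quantile normalisation put GADD45A at -0.06 and SESN1 at -0.02. None of these ratios passed the threshold in limma, which called 0 probe sets under either siRNA, with 55 and 70 at an unadjusted p under 0.05. The control ratio depends on the probe set, since MmuSTS.1503.1.S1_at of MDM2 had -0.50 and MmuSTS.2129.1.S1_at of RRM2B had -0.39. With the set as a term and without the set 1 cytoplasmic control array, 6 of 7 control ratios lay above 0, with GADD45A at -0.041, and the median was 0.19. Without the set 2 one the median was 0.096.

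**Figure D4:**
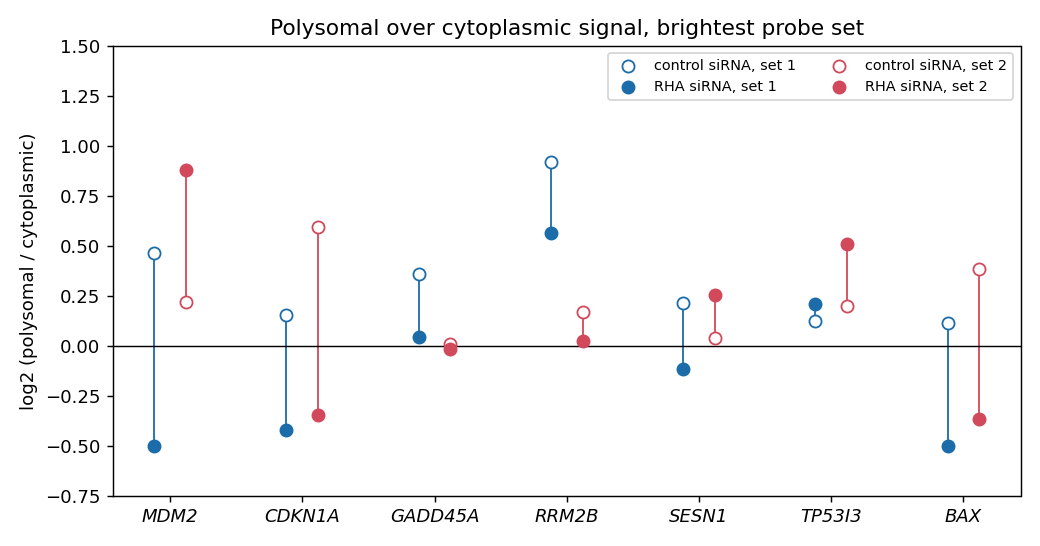
The log2 ratio of polysomal over cytoplasmic intensity in each set for the brightest probe set of the 7 tested genes, under control siRNA (open) and RHA siRNA (filled), joined within a set, with set 1 in blue and set 2 in red. All open points lie above 0, and CDKN1A and BAX lie below 0 under RHA siRNA in both sets.

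The change in loading under RHA siRNA is the difference of these ratios and shares their arrays. It was below 0 in both sets for 4 of 7 genes, CDKN1A, BAX, RRM2B and GADD45A, where 28.2% of all genes were. CDKN1A had the lowest value, -0.76 (SE 0.64, with -0.58 and -0.94 in the sets), followed by BAX at -0.69 (SE 1.70, with -0.62 and -0.75). With the set as a term these SEs were 0.38 and 0.33. RRM2B had -0.25, GADD45A -0.17, MDM2 -0.15 (-0.96 and 0.66 in the sets), SESN1 -0.06 (0.02 under quantile normalisation) and TP53I3 0.20. The median of the 7 was -0.17 beside -0.03 for all genes. Limma called 0 probe sets, with 46 at an unadjusted p under 0.05, and the adjusted p of CDKN1A was 1.00, or 0.967 with the set as a term. With the set as a term and without the set 1 cytoplasmic control array, 4 of 7 genes lay above 0 in place of 1, with GADD45A at 0.056, MDM2 at 0.14 and RRM2B at 0.21, and the median was 0.056. Without the set 2 one the median was -0.43, and SESN1 had 0.0090. CDKN1A had -1.08 and -0.43 in these fits, and BAX -0.87 and -0.50. The second RRM2B probe set had 1.04.

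Other genes of the pathway were taken from 4 lists, to be read against the same share of all genes above 0. Among regulators of p53, 14 of 20 listed genes had a probe set and 13 were tested, of which 3 had a log2 fold change above 0 over both fractions and 10 below, with a median of -0.18, where 53.8% of all genes lay above 0. None passed the threshold in limma. MDM4, the partner of MDM2 that holds p53 inactive, had -0.01, the acetyltransferase gene CREBBP -0.45, the kinase gene HIPK2 -0.49 (its further tested probe sets ran from -0.38 to 0.22) and the p53 inhibitor gene PPP1R13L -0.22. PPM1D and ATM were not analysed here. Among 36 further p53 targets, 26 were tested, with 18 above 0, 8 below and a median of 0.13, and none passed the threshold. In both sets 10 of the 26 were above 0 and 4 below, where 28.1% of all genes were above 0 in both. SUSD6, a p53-induced membrane protein, had 0.57 (0.27 and 0.86 in the sets) with no overlap between the siRNAs. APAF1, the scaffold of the apoptosome, had -0.61 (-0.54 and -0.69), though a second tested probe set had 0.23. EI24, an endoplasmic reticulum protein induced by p53, had 0.76 (1.15 and 0.37), and its other 2 probe sets had 0.93 and 1.05. The median of the 26 was 0.06 in set 1 and 0.11 in set 2.

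Relatives of the members were read beside them. Of 17 relatives, 12 were tested, with 5 above 0, 7 below and a median of -0.08. Among all genes 53.8% lay above 0 and the median was 0.03. None of the 12 passed the threshold. GADD45B and GADD45G, which share the GADD45 fold, had -0.17 (0.11 and -0.44 in the sets) and -0.16. The brightest GADD45A probe set had 1.06, while its other tested probe sets had -0.21 and 0.19. RRM1, the large subunit that pairs with RRM2B, had -0.48 (-0.10 by another tested probe set). The sestrin SESN3 had -0.27 (its further tested probe sets had 0.15 and -0.51). BCL2L1 and MCL1, survival proteins that oppose BAX, had 0.39 and 0.56, and the kinase inhibitor CDKN1B had -0.21. Further tested BCL2L1 probe sets had 0.05 and 0.23.

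Stress genes linked to ATF4 were examined because GADD45A and SESN2 also answer to that factor. All 8 of the 10 that had a probe set were tested. Of these 6 lay above 0 and 2 below, where 53.8% of all genes lay above 0. The median of the 8 was 0.37 (0.51 and 0.27 in the sets), beside 0.03 for all genes. DDIT3, a transcription factor of the stress response, had 1.06 (1.12 and 1.01) with no overlap between the siRNAs. CHAC1, which breaks down glutathione, had 0.79 (0.68 and 0.89) and ATF4 itself 0.43 (0.63 and 0.22). ATF3 and SLC7A11 were below 0, at -0.27 each. None of the 8 passed the threshold in limma, and the part of this route in the values of GADD45A was not tested.

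Across the 8 arrays, centred on the mean of each set, the members fell into patterns that differed. As a description, with arrays that share their set and siRNA, GADD45A and RRM2B had a Pearson r of 0.960, MDM2 had 0.845 with GADD45A and 0.806 with RRM2B, and TP53I3 had -0.808 with GADD45A. CDKN1A had 0.923 with BAX and 0.392 with GADD45A. Of 10105 other genes, those most like GADD45A were SLC20A1 (r = 0.997), EHBP1 (0.994) and NOL4 (0.993), whose siRNA effects (log2, fractions averaged) were 0.74, 0.62 and 1.49. The sign of these effects follows from the choice by r with GADD45A and is no separate result. Those most like RRM2B were YIPF6 (0.991), TNKS2 (0.990) and ZNF446 (0.990). MDM2 was followed most closely by LRRC8C (0.993), PNP (0.977) and ZNF26 (0.976), and CDKN1A by SPPL3 (0.972), SPACDR (0.968) and NOS2 (0.967). With 8 arrays and this many genes, these are the top of a long ranking.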

How the data were processed

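Probe set intensity values of 8 arrays were used as deposited by the authors, on a linear scale with medians from 19.3 to 20.8, and were taken as already normalised. GCOS and RMA are listed, without a role, per the submitters' processing notes. Probe annotation gave 1 symbol to 24972 of 52865 probe sets, several to 358, and 27535 are unnamed here. Of 52766 probe sets (99 controls were left out), the brighter 50% by mean log2 intensity, 26383, were tested, which set a limit of 4.32. The brightest probe set stood for a gene.

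A model of 4 groups without further term was fitted over all arrays with limma 3.58.1 in R 4.3.3 (lmFit, eBayes, two-sided), with Benjamini-Hochberg adjustment over all tested probe sets. The replicate number as a term (the replicate block), quantile normalisation, other filters, a floor, other probe sets and leaving out each array were alternatives. The code was tested on simulated data. Members, lists and naming rule were chosen with earlier results of these data known. The rule named all members, DHX9, up to 3 genes per list with the smallest p over both fractions, and the 3 genes most like each of MDM2, CDKN1A, GADD45A and RRM2B. PPM1D and ATM, also in the rule, were not analysed here, and a further item is not reported here. MDM4 was named by the rule too. DDIT3, CHAC1 and ATF4 were named by the same measure from a list the rule did not cover. EPCAM, VIM, LYZ, CD14, GADD45B, GADD45G, RRM1, SESN3, ATF3, SLC7A11 and the marker genes below the limit were named after their values were seen. Nothing in the labels says whether replicates were separate cultures. The p-values therefore cover the spread of these arrays alone, which may be technical, and precision is limited by how few arrays there are.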

Additional observations from a re-analysis of the deposited data

Results flagged for a closer look

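The s_at probe set of BAX (MmugDNA.6935.1.S1_s_at) was picked out because its siRNA effect pointed up in cytoplasmic RNA of both sets (0.45 and 0.78, log2) and down in polysomal RNA of both sets (-0.34 and -0.20). The difference between the fractions was -0.88, and its adjusted p in limma was 1.00, or 0.967 with the set as a term. The s_at suffix marks probes that may read more than 1 transcript. Groups of 2 arrays were too small for a check of single outlying arrays.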

How the results depend on the processing

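Main values came from a fit without the replicate block, since the labels do not say what the replicate numbers share. Deviations of same-numbered arrays correlated at 0.680 to 0.868 in the check of this pairing, and the block changed the count of called probe sets over both fractions from 0 to 2, with no other call changed. With the block and without the set 1 cytoplasmic control 33 probe sets were called over both fractions, and without the set 2 one 954, with 1150 in cytoplasm and 748 for the control ratio. In those same fits, chosen after seeing the data, the loading of GADD45A was 0.056, MDM2 0.14 and RRM2B 0.21 (without set 1) and SESN1 0.0090 (without set 2), the GADD45A control ratio was -0.041 (without set 1), the median loading was -0.43 (without set 2), and the median control ratio was 0.19 and 0.10. Quantile normalisation gave SESN1 0.021 for loading, -0.038 for the control ratio and -0.017 under RHA siRNA, GADD45A -0.064 under RHA siRNA, and a median control ratio of 0.10.

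The upper 25% gave a median control ratio of 0.18, and means of tested probe sets gave 0.16, with a cytoplasmic median of 0.42, RRM2B loading of 0.39 and polysomal BAX of -0.15. A floor of 16, no filter, trend and robust variance, and leaving out s_at and x_at probe sets reversed no member. Further probe sets reversed members as follows. GADD45A with MmugDNA.34522.1.S1_at had -0.21 over both fractions, -0.38 in cytoplasm, -0.034 in polysomes, 0.35 for loading and -0.013 for the control ratio. With its dimmest probe set it had -0.10 in polysomes and -0.10 under RHA siRNA. RRM2B with MmuSTS.2129.1.S1_at had -0.60, -1.12, -0.079, 1.04 and -0.39 in the order of the first. MDM2 with MmuSTS.1503.1.S1_at had 0.33 for loading, -0.50 for the control ratio and -0.17 under RHA siRNA. BAX with MmugDNA.5655.1.S1_at had -0.047 over both fractions and -0.21 in polysomes, and with the s_at probe set -0.27 in polysomes. The cause of these reversals was not tested.

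Leaving out each array, in fits without the block, called 0 probe sets. These fits leave the sets unequal between the groups, so for members that differ between the sets, BAX above all, their values and the medians that follow them move with the set difference and do not show how stable the siRNA effect is. Over both fractions BAX ran from -0.20 to 0.95, CDKN1A from -0.0099 to 0.51 and the median from 0.31 to 0.95. In cytoplasm BAX ran from -0.36 to 1.80 and the median from 0.50 to 1.23. In polysomes BAX ran from -1.11 to 1.18, CDKN1A from -0.43 to 0.17, SESN1 from -0.088 to 0.55 and the median from 0.23 to 0.95. For loading BAX ran from -1.83 to 0.46, GADD45A from -0.43 to 0.091, MDM2 from -0.57 to 0.26, RRM2B from -0.67 to 0.17, SESN1 from -0.38 to 0.26 and the median from -0.43 to 0.11. For the control ratio BAX ran from -0.79 to 1.29, CDKN1A from -0.15 to 0.89, GADD45A from -0.076 to 0.44, SESN1 from -0.19 to 0.45 and the median from 0.12 to 0.44. Under RHA siRNA BAX ran from -1.58 to 0.71, GADD45A from -0.010 to 0.041, MDM2 from -0.23 to 0.61, SESN1 from -0.11 to 0.25 and the median from 0.020 to 0.24. Signal near the limit sets the precision of FAS, TP53INP1 and the dimmer MDM2 and RRM2B probe sets.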
